A study of Mus musculus with 5 samples.

Results

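Periportal hepatocytes, the cells at the inflow side of the liver lobule, were taken here as the 20% of cells in each library with the least Cyp2e1 relative to Cyp2f2. Of 47473 cells deposited, 37721 had at least 300 UMIs (unique transcript molecules) of the targeted gene panel. Each was scored by log2((Cyp2e1 UMIs + 0.5)/(Cyp2f2 UMIs + 0.5)), and those at or below the 20th percentile of their own library were kept. This gave 7716 cells: 1380 (0 h), 1070 (8 h), 1662 (16 h), 1654 (24 h) and 1950 (30 h), named by hours of fasting. The 7552 cells at the other end of the score (the highest 20%, called the pericentral end below) served for comparison.

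Blood enters a lobule beside the portal vein and leaves by the central vein, and oxygen, nutrients and hormones change in concentration on the way. Periportal hepatocytes are known for making glucose from amino acids and lactate and for urea synthesis, whereas pericentral hepatocytes are known for glutamine synthesis, metabolism of foreign compounds and the start of bile acid synthesis. In a fast, falling insulin and rising glucagon are known to turn hepatocytes from making fat towards making glucose.

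All mice were wild-type C57BL/6J males on normal chow. The submitters trained them for 3 days with 16 h of fasting and 8 h of feeding, and on the final day gave 20% sucrose in the drinking water. For the fed library (0 h) they had eaten for 4 h when they were killed, at clock hour 13. Food and sucrose were withdrawn from the rest, whose hepatocytes were isolated 8, 16, 24 and 30 h later, at clock hours 21, 5, 13 and 19 in that order. No source used here gives the age of the mice or how many made up a library. There was 1 library at each time, which leaves every value without a replicate check, and no test was made. Fasting hours and clock hour cannot be told apart. The 0 h and 24 h libraries were taken at 1 clock hour.

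Levels are in CPM, here UMIs per 1000000 panel UMIs with the albumin gene Alb left out. Bracketed ranges are 95% intervals for counting error only. The summed UMIs behind each library's periportal levels ran from 138175 (8 h) to 633122 (30 h). The libraries differed in depth: periportal cells had a median of 1155 panel UMIs at 0 h, 594 (8 h), 771 (16 h), 1537 (24 h) and 1318 (30 h). The minimum of 300 UMIs left out 57.5% of the 8 h library's cells and between 5.55% and 12.7% of the others. Periportal cells also held more UMIs than the pericentral end, whose medians ran from 471 (8 h) to 924 (24 h). Of the barcode sequences, 2 occurred in the periportal cells of more than 1 library. The panel's 6 markers of endothelial, immune and stellate cells (Cd68, Cdh5, Mrc1, Pdgfra, Pdgfrb and Ptprc) summed to between 86.9 and 268 CPM in periportal cells. At most 2 periportal cells of a library held 3 or more UMIs of these 6 genes, and Pdgfra was at 0 at 0, 8 and 16 h.

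The values that chose the cells are given as a description. Cyp2f2 (GRCm38 chromosome 7, 27119909 to 27133660), a cytochrome P450 known as a periportal marker, stood in periportal cells at 81794 CPM (0 h), 98520 (8 h), 84490 (16 h), 63816 (24 h) and 83459 (30 h). Cyp2e1 (chromosome 7, 140763739 to 140774987), a cytochrome P450 known as a pericentral marker, stood there at 1067, 2511, 2862, 19611 and 8802 CPM. The 20th percentile lay at a score of -4.25 (0 h), -3.17 (8 h), -3.23 (16 h), -1.14 (24 h) and -2.50 (30 h). A cell kept at 24 h could therefore hold much more Cyp2e1 than a cell kept at 0 h. Just inside that border at 24 h (15th to 20th percentile), cells had a median of 9 Cyp2e1 and 22.5 Cyp2f2 UMIs, and just outside it (20th to 25th percentile) 11 and 23. At 0 h the medians were 1 and 31 just inside and 1 and 26 just outside. The border of the pericentral end moved too. Its lowest score was -1.06 (0 h), 2.81 (8 h), 1.35 (16 h), 3.77 (24 h) and 2.56 (30 h), so at 0 h it included cells with more Cyp2f2 than Cyp2e1. Cyp2f2 stood there at 23642, 4785, 11718, 6574 and 8386 CPM.

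The label was checked with markers that the score did not use. Hsd17b13 (chromosome 5, 103955440 to 103977410, minus strand), a lipid droplet enzyme given as a periportal marker, stood at 16945, 20402, 20465, 17633 and 27382 CPM in periportal cells at 0, 8, 16, 24 and 30 h. At the pericentral end it stood at 5614, 4271, 4049, 3034 and 4503. The periportal level was the higher one in every library, by a log2 ratio of 1.59 (0 h), 2.26 (8 h), 2.34 (16 h), 2.54 (24 h) and 2.60 (30 h). The pericentral genes lay the other way. Cyp7a1, the rate-limiting enzyme of bile acid synthesis, had log2 ratios between -4.84 (16 h) and -3.16 (24 h). Gulo, an enzyme of vitamin C synthesis, had ratios between -3.86 and -2.95, Glul (glutamine synthetase) between -2.65 and -0.61, and Cyp27a1, a sterol hydroxylase, between -0.97 and -0.56.

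Along the score, however, the periportal cells were not set apart from the cells next to them. Each library was divided into 5 bands of 20% by score, band 1 being the periportal cells. Between band 1 and band 2, 0 panel genes outside the score (0.00%) differed by over 2-fold in any library. Between band 1 and band 3, in the middle of the score, the count was 0 of 49 at 0 h (0.00%), 1 of 46 at 8 h (Cyp7a1, log2 -1.12; 2.17%), 0 of 47 at 16 h (0.00%), 0 of 48 at 24 h (0.00%) and 0 of 49 at 30 h (0.00%). The median size of these log2 ratios was between 0.059 (30 h) and 0.11 (24 h). Hsd17b13 in band 1 over band 3 had log2 ratios of 0.10, 0.20, 0.057, 0.24 and 0.11 in order of time. Its level at 16 h ran 20465, 20135, 19676, 14665 and 4043 CPM from band 1 to band 5. Pck1, which encodes a gluconeogenic enzyme, had band 1 to band 3 ratios between -0.017 and 0.12. Against band 4 the count was 1 (0 h, 2.04%), 4 (8 h, 8.70%), 2 (16 h, 4.17%), 4 (24 h, 8.33%) and 2 (30 h, 4.08%), with Cyp7a1 among them each time. By these genes, the cells chosen were set apart from band 5, less from band 4 and hardly from bands 2 and 3, so "periportal" here names the end of a score. Counting error in the score bears on this. Periportal cells held a mean of 0.34 Cyp2e1 UMIs at 0 h. With cells scored on a random part of their UMIs and levels taken from the rest, periportal Cyp2e1 at 0 h was 5433 CPM in place of 1067. Cells misplaced between bands 1 to 3 would lessen the differences between those bands, and how many were misplaced was not tested.

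**Figure D1:**
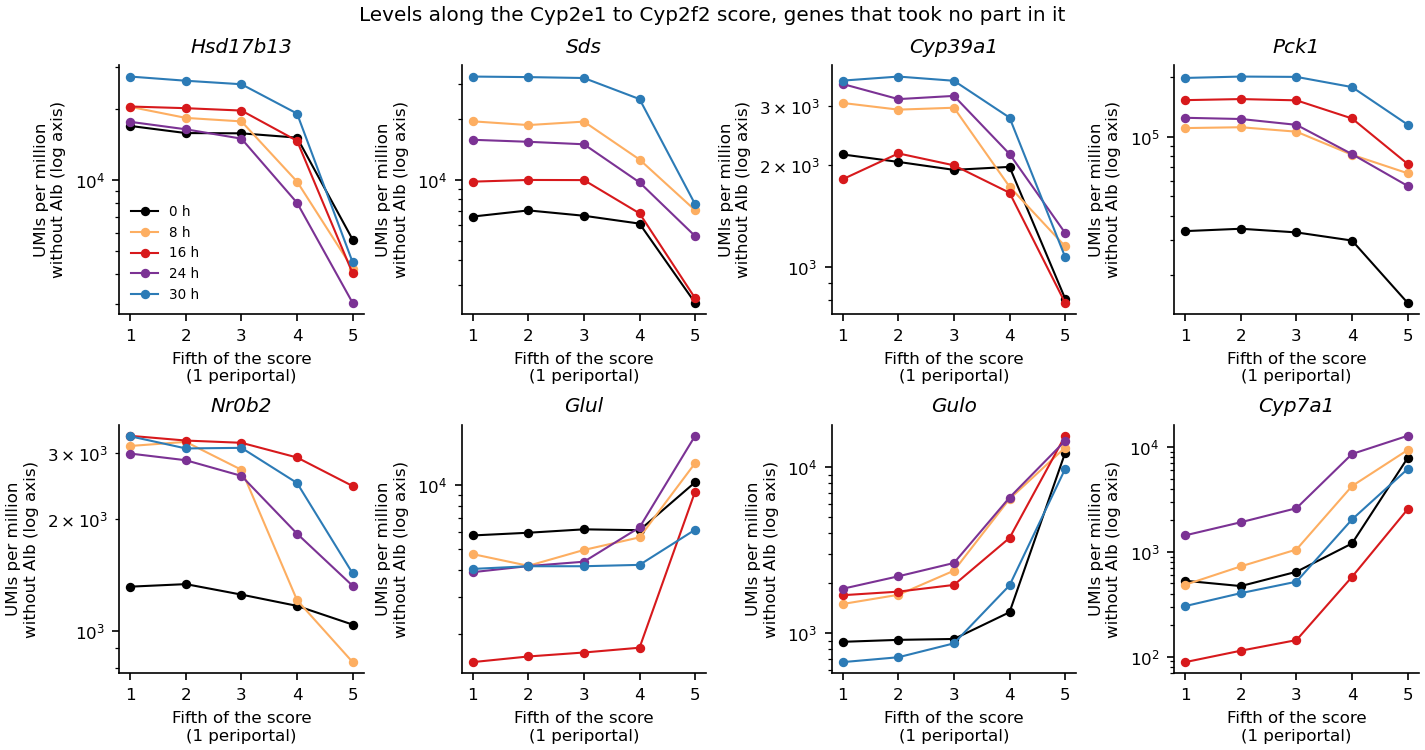
Levels of 8 genes outside the score (UMIs per 1000000 panel UMIs without Alb, log axis) over the 5 bands of 20% of the score, with 1 line per fasting hour; band 1 is the periportal cells. Hsd17b13 and Sds are nearly level over bands 1 to 3 and low in band 5, and Cyp7a1 and Gulo rise towards band 5.

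Against the pericentral end, 45 genes outside the score had at least 100 UMIs in every library's comparison. Over 2-fold higher in periportal cells in all 5 libraries were 3 genes (6.67%), Hsd17b13, Sds and Cyp39a1, and over 2-fold lower were 2 (4.44%), Cyp7a1 and Gulo. Sds, serine dehydratase, which feeds serine into glucose production, had log2 ratios of 1.42 (0 h), 1.45 (8 h), 1.92 (16 h), 1.59 (24 h) and 2.10 (30 h). Cyp39a1, a hydroxylase of oxysterols, had ratios of 1.41, 1.39, 1.21, 1.46 and 1.73. With a less strict rule, an interval clear of 0 in all 5 libraries, 16 genes (35.6%) were higher and 7 (15.6%) were lower. The denominator bears on this count. Cyp2e1 took 13.9% of the non-Alb UMIs at the pericentral end at 0 h and 34.1% at 30 h, which lowers every other gene's share there. With Cyp2e1 and Cyp2f2 also left out, every log2 ratio moved by -0.13 (0 h), -0.11 (8 h), -0.23 (16 h), -0.35 (24 h) and -0.48 (30 h). Cyp39a1 then had 0.98 at 16 h, just under 2-fold, while Hsd17b13 and Sds remained over 2-fold higher in all 5 libraries. On that scale 8 genes were higher with the interval clear of 0 in every library (Hsd17b13, Sds, Cyp39a1, Pck1, G6pc, Nr0b2, Igf1 and Elovl2) and 12 were lower. With Alb kept in the denominator, every ratio moved by between -1.08 (24 h) and -0.74 (0 h), since Alb took 72.9% to 78.8% of periportal UMIs and 50.3% to 59.3% at the pericentral end. Hsd17b13 then had ratios from 0.85 to 1.61, Sds from 0.51 to 1.11 and Cyp39a1 from 0.22 to 0.74, all above 0 in every library, whereas Nr0b2 and Igf1 lay on both sides of 0 and Elovl2 below 0.

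Counted against the fed library, the periportal cells held genes past 2-fold in both directions at every time. Of 49 genes with at least 100 UMIs in the libraries compared, those over 2-fold higher than at 0 h were 9 (8 h, 18.4%), 6 (16 h, 12.2%), 7 (24 h, 14.3%) and 9 (30 h, 18.4%). Over 2-fold lower were 7 (14.3%), 12 (24.5%), 12 (24.5%) and 11 (22.4%). The median log2 ratio over the 49 genes was -0.0071, -0.048, 0.016 and 0.12. All 4 comparisons share the 0 h library. Over all cells with 300 or more UMIs, of which the periportal cells are a part, 52 genes were tested. There, 10 (19.2%), 7 (13.5%), 5 (9.62%) and 8 (15.4%) were higher and 7 (13.5%), 10 (19.2%), 11 (21.2%) and 13 (25.0%) lower, so the periportal shares lay near those of the whole. Counted as UMIs per cell in place of a share, the median log2 ratio of all genes in periportal cells was -1.31 at 8 h and -0.84 at 16 h, in the 2 shallowest libraries. Levels at every time are relative to the panel, not amounts per cell.

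**Figure D2:**
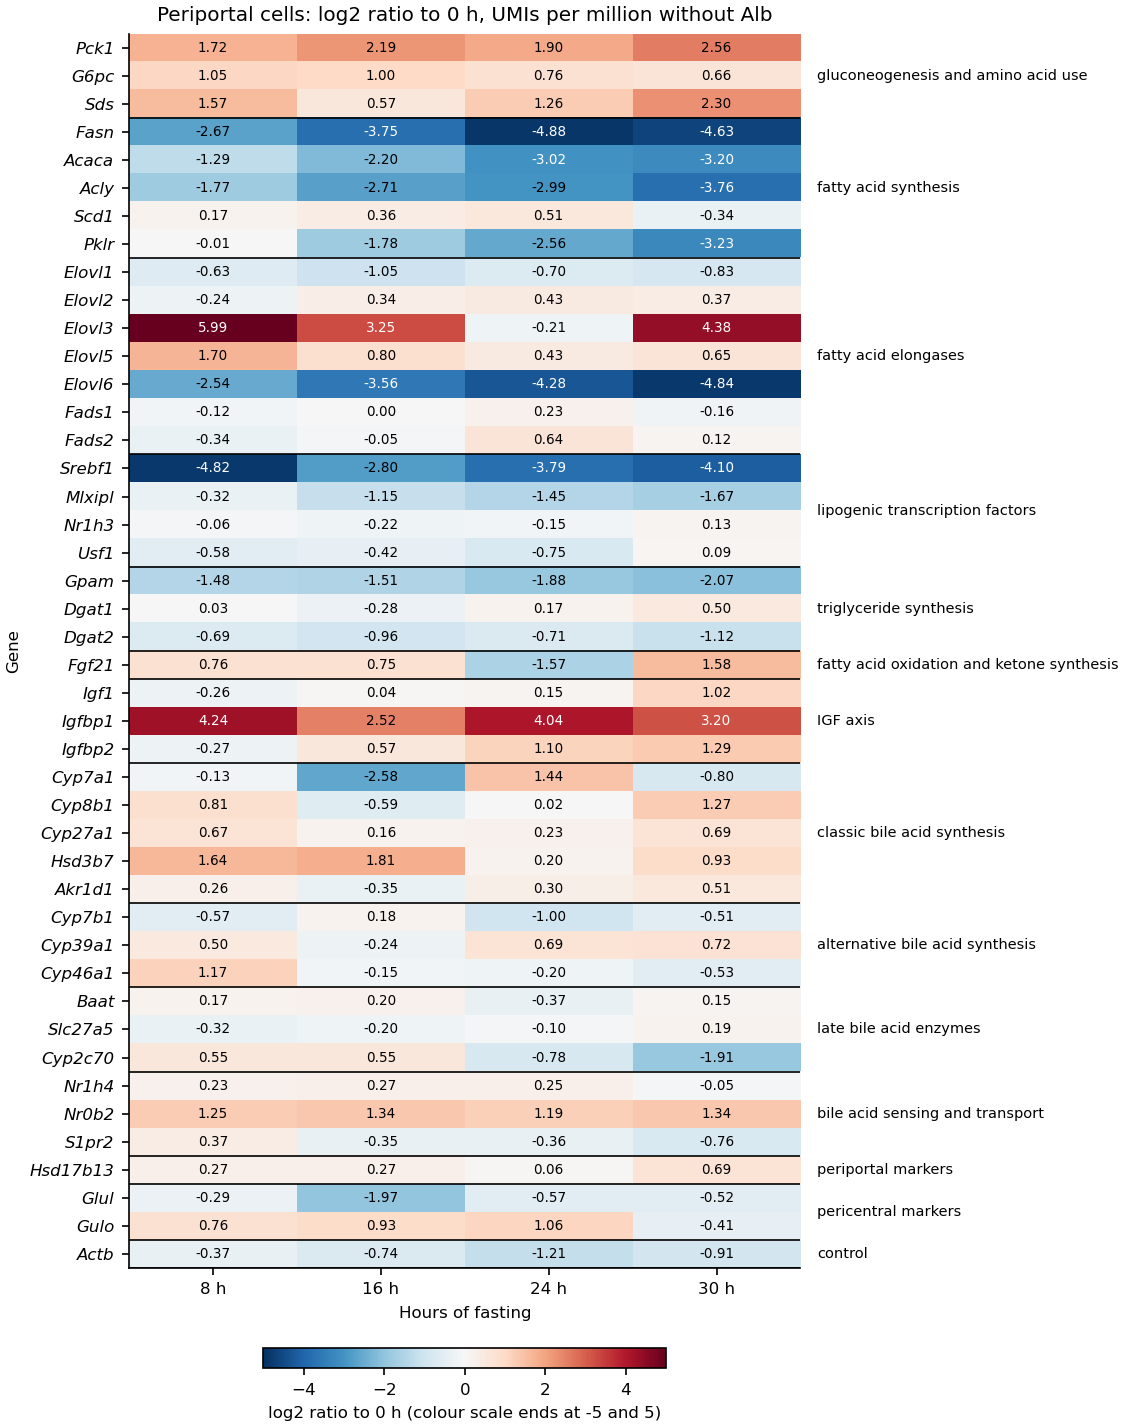
Log2 ratio to 0 h of listed panel genes in periportal cells at 8, 16, 24 and 30 h, grouped by gene list; colour gives the sign and size. The fatty acid synthesis genes shown, other than Scd1, are low at 16, 24 and 30 h, and Pck1, Igfbp1 and Nr0b2 are high at all 4 times.

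The panel held 3 genes of gluconeogenesis and amino acid use, and all 3 were above their 0 h level in periportal cells at every time. Over 2-fold higher were 3 of 3 at 8 h and 2 of 3 at 16, 24 and 30 h, against 18.4%, 12.2%, 14.3% and 18.4% of all genes compared. Pck1 (chromosome 2, 173153048 to 173159273 in GENCODE) encodes cytosolic phosphoenolpyruvate carboxykinase, which makes phosphoenolpyruvate from oxaloacetate. It stood at 33413 CPM (0 h), 110447 (8 h), 152750 (16 h), 124455 (24 h) and 197632 (30 h). Its log2 ratio to 0 h was 1.72 (1.69 to 1.76), 2.19 (2.17 to 2.22), 1.90 (1.87 to 1.92) and 2.56 (2.54 to 2.59), the last a 5.91-fold difference. The level was lower at 24 h than at 16 h (log2 -0.30) and highest at 30 h.

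The bases before the RefSeq start of Pck1 are shown because Pck1 was over 2-fold higher at all 4 fasting times, and those of G6pc because it passed 2-fold at 8 and 16 h only. Both are RefSeq windows of 250 bases on GRCm38.p6, plus strand, 5′ to 3′, at chr2:173152823-173153072 for Pck1 and chr11:101367466-101367715 for G6pc. Capitals mark matches to ACGTCA (or TGACGT on the other strand), the core of the cAMP response element through which glucagon is known to act.
Pck1: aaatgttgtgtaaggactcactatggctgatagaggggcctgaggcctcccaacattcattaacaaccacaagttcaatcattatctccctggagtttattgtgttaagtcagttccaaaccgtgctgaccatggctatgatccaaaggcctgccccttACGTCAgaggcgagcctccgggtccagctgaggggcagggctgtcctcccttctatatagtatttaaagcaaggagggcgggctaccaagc
G6pc: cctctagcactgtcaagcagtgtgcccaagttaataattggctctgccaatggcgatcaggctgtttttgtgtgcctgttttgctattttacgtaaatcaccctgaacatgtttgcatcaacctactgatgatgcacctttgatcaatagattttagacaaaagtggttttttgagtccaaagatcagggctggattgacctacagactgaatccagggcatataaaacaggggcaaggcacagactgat
GENCODE begins both genes earlier than RefSeq, so the last 25 bases of the Pck1 window and the last 155 of the G6pc window lie inside the gene as positioned by GENCODE. The Pck1 window held 1 match, beginning at position -91 from the RefSeq start, and the G6pc window held 0. Of 32851 promoter windows of the same length, 2125 (6.47%) held the motif. A match describes the letters only, and its absence says nothing about binding of the factor.

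G6pc (chromosome 11, 101367561 to 101377903 in GENCODE), the catalytic subunit of glucose-6-phosphatase, releases free glucose in the final step. Its periportal level was 15250 CPM (0 h), 31489 (8 h), 30530 (16 h), 25829 (24 h) and 24082 (30 h). The log2 ratios to 0 h were 1.05 (0.99 to 1.10), 1.0 (0.96 to 1.05), 0.76 (0.72 to 0.80) and 0.66 (0.62 to 0.70), so G6pc passed 2-fold at 8 and 16 h only, by a margin inside the counting interval. Counted as UMIs per cell, G6pc at 8 h lay below 0 h (log2 -0.25). Sds (chromosome 5, 120476526 to 120483932) followed another course, at 6577 CPM (0 h), 19497 (8 h), 9796 (16 h), 15794 (24 h) and 32495 (30 h). It was high at 8 h and highest at 30 h, with a trough at 16 h (log2 1.57, 0.57, 1.26 and 2.30). From 24 h to 30 h Sds differed by a log2 ratio of 1.04, while Pck1 differed by 0.67 and G6pc by -0.10.

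**Figure D3:**
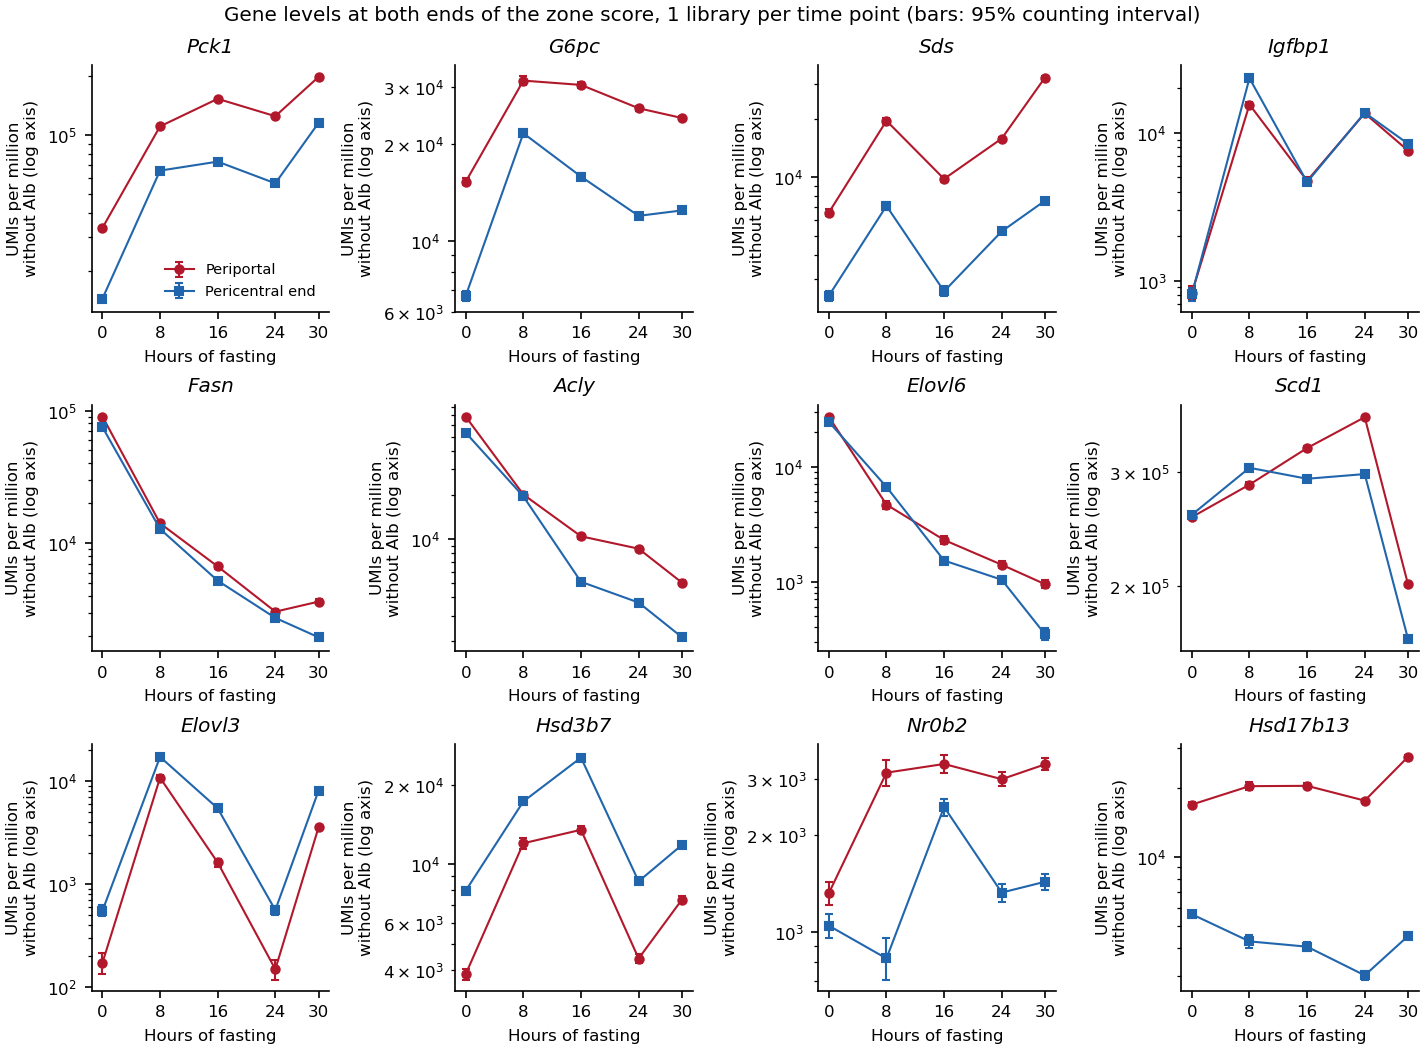
Level of 12 genes (UMIs per 1000000 panel UMIs without Alb, log axis) against hours of fasting in periportal cells (red circles) and at the pericentral end (blue squares); bars are 95% counting intervals, mostly smaller than the symbols, and each point is 1 library. With Alb left out of the denominator, Pck1, G6pc, Sds and Hsd17b13 lie higher in periportal cells at all 5 times (with Alb kept, Pck1 and G6pc turn at some), and Elovl3 and Hsd3b7 lie lower.

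Without Alb in the denominator, the gluconeogenic genes were also higher in periportal cells than at the pericentral end, and the size of that ratio differed between libraries. For Pck1 it was a log2 ratio of 1.20 (0 h), 0.75 (8 h), 1.07 (16 h), 1.14 (24 h) and 0.78 (30 h). For G6pc it was 1.18, 0.54, 0.95, 1.11 and 0.96. With Alb kept in the denominator these turned: Pck1 had 0.46, -0.19, 0.076, 0.062 and -0.21, and G6pc 0.44, -0.39, -0.042, 0.036 and -0.036. Pck1 at the pericentral end stood at 14530, 65595, 72909, 56482 and 115009 CPM, so that end at 8 h already exceeded the periportal fed level. The change from 0 h in periportal cells minus that at the pericentral end was -0.45 (8 h), -0.13 (16 h), -0.062 (24 h) and -0.42 (30 h) for Pck1. The Pck1 difference was also below 0 at every time with Cyp2e1 and Cyp2f2 left out of the denominator (-0.43, -0.23, -0.28 and -0.77) and with Alb kept in it (-0.64, -0.38, -0.40 and -0.67). With the lowest and highest 30% of the score in place of 20%, however, it lay above 0 at 16 h (0.0033) and 24 h (0.15). For Sds the difference was 0.033, 0.50, 0.16 and 0.68. It turned to -0.16 at 8 h and -0.17 at 24 h with Alb kept, and to -0.057 at 24 h without Cyp2e1 and Cyp2f2. With 1 fixed score threshold of -2 and 2 in all libraries, the 30 h Sds difference was 0.097.

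Most genes of fatty acid synthesis were over 2-fold lower in fasted periportal cells. Of the 6 panel genes on that list, 4 were over 2-fold lower than at 0 h at 8 h and 5 at 16, 24 and 30 h, and 0 were over 2-fold higher. Over all genes compared, 14.3%, 24.5%, 24.5% and 22.4% were over 2-fold lower. The list's median log2 ratio was -1.18, -2.46, -2.78 and -3.21, against medians over all genes of at most 0.12 in size. Fasn, fatty acid synthase, stood at 90098 CPM (0 h), 14134 (8 h), 6692 (16 h), 3055 (24 h) and 3634 (30 h). At 24 h this was 29.5-fold lower than at 0 h (log2 -4.88, -4.95 to -4.81). Acly, which makes cytosolic acetyl-CoA from citrate, went from 68482 to 20148, 10449, 8599 and 5053 CPM, lower at each later time. Acaca, acetyl-CoA carboxylase, went from 11052 to 4530, 2400, 1361 and 1207.

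Pklr and Scd1 followed courses of their own. Pklr, liver pyruvate kinase, which completes glycolysis, stood at 9200 and 9155 CPM at 0 and 8 h (log2 -0.0071, -0.10 to 0.08) and then at 2679, 1561 and 982. Scd1, the stearoyl-CoA desaturase that makes oleate, was the most abundant gene after Alb. Its periportal level was 255683 CPM (0 h), 287114 (8 h), 327116 (16 h), 365171 (24 h) and 201370 (30 h), which did not differ by 2-fold at any time (log2 0.17, 0.36, 0.51 and -0.34). Since Scd1 took between 20.1% and 36.5% of the non-Alb UMIs, its own level moves the other genes' shares.

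Among the 4 lipogenic transcription factors, Srebf1 and Mlxipl were over 2-fold lower and the others were not. Srebf1 (chromosome 11, 60199089 to 60222581, minus strand; an exon overlaps Mir6922), the insulin-responsive activator of lipogenic genes, stood at 16126 CPM (0 h), 572 (8 h), 2318 (16 h), 1170 (24 h) and 938 (30 h). Its lowest value came at 8 h, 28.2-fold under the fed level, on 79 UMIs. Fasn and Acly at 8 h had not reached their lowest values. Mlxipl, the carbohydrate-responsive activator ChREBP, had log2 ratios of -0.32, -1.15, -1.45 and -1.67. Nr1h3 (liver X receptor alpha; its exons overlap Gm13783) had ratios between -0.22 and 0.13, and Usf1 (overlapping Tstd1) between -0.75 and 0.09.

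Of the 3 triglyceride genes, 1 was over 2-fold lower at 8, 16 and 24 h and 2 at 30 h. The shares over all genes compared were 14.3%, 24.5%, 24.5% and 22.4%. Gpam, which adds the initial fatty acid to glycerol phosphate, stood at 24407 CPM (0 h), 8743 (8 h), 8583 (16 h), 6636 (24 h) and 5795 (30 h). Dgat2, which completes triglyceride, had log2 ratios of -0.69, -0.96, -0.71 and -1.12, past 2-fold at 30 h alone. Dgat1, with the same reaction, had 0.03, -0.28, 0.17 and 0.50.

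The elongases and desaturases of long-chain fatty acids split. Elovl6, which extends the product of fatty acid synthase, stood at 27137 CPM (0 h), 4675 (8 h), 2302 (16 h), 1401 (24 h) and 949 (30 h), ending 28.6-fold lower. Elovl5, an elongase of polyunsaturated fatty acids, stood at 9198, 29926, 16036, 12430 and 14397 CPM, over 2-fold higher at 8 h alone (log2 1.70, 1.64 to 1.76). Elovl3, an elongase of saturated and monounsaturated chains, stood at 171 CPM (0 h), 10841 (8 h), 1623 (16 h), 148 (24 h) and 3560 (30 h). The periportal cells at 0 and 24 h, which share the clock hour, thus had Elovl3 levels within counting error of each other (log2 -0.21, -0.68 to 0.27), and at 8 h the level was 63.4-fold above 0 h. Elovl1, an elongase of very long chains, was over 2-fold lower at 16 h alone (log2 -1.05). Elovl2, Fads1 and Fads2, of the polyunsaturated pathway, passed 2-fold at no time, with log2 ratios between -0.34 and 0.64. The other panel members, Elovl4 and Elovl7, had too few UMIs to be compared, Elovl4 with 0.

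Of 3 genes of the insulin-like growth factor axis compared, 1 was over 2-fold higher at 8 and 16 h, 2 at 24 h and 3 at 30 h. The shares over all genes compared were 18.4%, 12.2%, 14.3% and 18.4%. Igfbp1, a secreted binding protein known to be repressed by insulin, stood at 823 CPM (0 h), 15509 (8 h), 4734 (16 h), 13531 (24 h) and 7581 (30 h). It was high at 8 and 24 h and lower at 16 and 30 h, and the smallest fasted value was 5.75-fold above the fed one. Igfbp2, another binding protein, stood at 12286, 10204, 18177, 26391 and 30106 CPM, past 2-fold at 24 h (log2 1.10) and 30 h (1.29). Igf1, the growth factor itself, stood at 42148 CPM (0 h), 35100 (8 h), 43402 (16 h), 46717 (24 h) and 85263 (30 h). Its log2 ratio to 0 h was thus between -0.26 and 0.15 up to 24 h, and at 30 h the level was 2.02-fold higher (log2 1.02, 0.99 to 1.04).

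Genes of bile acid synthesis showed no common direction in periportal cells. In the classic pathway, 1 of 5 genes was over 2-fold higher at each time, and 1 was over 2-fold lower at 16 h. Over all genes compared, between 12.2% and 18.4% were higher and 24.5% were lower at 16 h, so these counts lay near the general share. Hsd3b7 (its exons overlap Gm49388), which follows the initial hydroxylation, stood at 3845 CPM (0 h), 12007 (8 h), 13498 (16 h), 4402 (24 h) and 7343 (30 h). It was over 2-fold higher at 8 h (log2 1.64) and 16 h (1.81) and near its fed level at 24 h (0.20, 0.10 to 0.29). Cyp8b1, the enzyme that leads to cholic acid, stood at 8149, 14286, 5400, 8241 and 19623 CPM, past 2-fold at 30 h (1.27) and within counting error of the fed level at 24 h (0.02, -0.05 to 0.08). Cyp7a1 was sparse in these cells, with 232, 67, 27, 775 and 192 UMIs summed per library. Its level, 529, 485, 88.5, 1437 and 303 CPM, was over 2-fold lower at 16 h and over 2-fold higher at 24 h. At the pericentral end Cyp7a1 had the same order at those times, with 7861 CPM (0 h), 2542 (16 h) and 12808 (24 h).

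Of the alternative pathway, Cyp7b1, an oxysterol hydroxylase, was 2-fold lower at 24 h (log2 -1.0, -1.10 to -0.90) and Cyp46a1, a cholesterol hydroxylase, was over 2-fold higher at 8 h (1.17, 0.62 to 1.71). Counted as UMIs per cell, that Cyp46a1 ratio was -0.13. Cyp39a1 and Cyp27a1 passed 2-fold at no time, with ratios between -0.24 and 0.72. Among late enzymes Cyp2c70, which makes muricholic acids in mice, stood at 8833 CPM (0 h), 12947 (8 h), 12947 (16 h), 5131 (24 h) and 2349 (30 h), and so went from above to 3.76-fold below its fed level. Baat and Slc27a5, which attach bile acids to taurine or glycine and to coenzyme A, had log2 ratios between -0.37 and 0.20.

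Nr0b2 (chromosome 4, 133553376 to 133556536), the corepressor SHP that bile acids induce through the receptor FXR, was over 2-fold higher than at 0 h at all 4 times. Its periportal level was 1318 CPM (0 h), 3141 (8 h), 3344 (16 h), 2997 (24 h) and 3334 (30 h), with log2 ratios to 0 h of 1.25, 1.34, 1.19 and 1.34. The fasted values were close to each other and the fed one stood alone. By UMIs per cell the 8 h ratio was -0.046. Nr1h4, which encodes FXR, had ratios between -0.05 and 0.27, and S1pr2, a receptor for conjugated bile acids, between -0.76 and 0.37.

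Fgf21, a fasting hormone, rested on 75, 40, 88, 31 and 323 UMIs. Its level was over 2-fold lower at 24 h (log2 -1.57, -2.23 to -0.95) and over 2-fold higher at 30 h (1.58, 1.21 to 1.96).

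Of the remaining markers and controls, Gulo passed 2-fold at 24 h (log2 1.06, 0.89 to 1.23), on a periportal level of 887 CPM at 0 h and 1850 CPM at 24 h. Actb, a cytoskeletal gene often used as a control, stood at 63004, 48866, 37697, 27321 and 33493 CPM in order of time, over 2-fold lower at 24 h (log2 -1.21), and was therefore not used to scale the others.

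Changes with fasting were then set beside those at the pericentral end. The score borders of both ends differed between libraries, so a change at either end also includes a change in which cells were chosen. The change differed between the ends by over 2-fold for 2 of 48 genes at 8 h (4.17%), 1 of 48 at 16 h (2.08%), 1 of 48 at 24 h (2.08%) and 2 of 49 at 30 h (4.08%). The median difference over the tested genes was 0.042, -0.0015, 0.15 and 0.29. This median depended on the denominator. With Cyp2e1 and Cyp2f2 left out it was 0.065, -0.099, -0.067 and -0.057, so its sign at 24 and 30 h turned. With Alb kept it was -0.15, -0.25, -0.18 and 0.043. The widest gap at 8 h was in Nr0b2, whose level at the pericentral end was 1043 CPM at 0 h and 824 at 8 h. The periportal change minus the pericentral change was 1.59 (1.29 to 1.90) there, and between 1.09 and 1.91 over the 16 other processing settings tried. Its ratio between the ends went from 0.34 at 0 h to 1.93 (8 h), 0.45 (16 h), 1.18 (24 h) and 1.22 (30 h). Elovl3 at 8 h was the other gene (1.01), with the larger relative change in periportal cells and the higher level, 17298 CPM, at the pericentral end. That difference lay between 0.50 and 1.39 over the 16 other settings, and rested on 75 periportal UMIs at 0 h.

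Glul (chromosome 1, 153899944 to 153909723; an exon overlaps Mir8114) differed most at 16 and 24 h. In periportal cells it stood at 5806 CPM (0 h), 4748 (8 h), 1479 (16 h), 3905 (24 h) and 4045 (30 h). At the pericentral end it stood at 10315, 12499, 9309, 17009 and 6178. The difference of the changes was -1.83 at 16 h and -1.29 at 24 h. At 24 h the pericentral end was thus above its fed level and the periportal cells below theirs.

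At 30 h the 2 genes were Elovl6 (1.30) and Hsd17b13 (1.01). Without Cyp2e1 and Cyp2f2 in the denominator, Elovl6 had 0.95 and Hsd17b13 0.66, both under 2-fold. On that scale 0 genes differed by over 2-fold at 30 h, 2 (8 h), 3 (16 h: Glul, Cyp7a1 and Cyp8b1) and 1 (24 h). The Hsd17b13 difference also depended on how the cells were chosen. With 1 fixed score threshold of -2 and 2 in all libraries, which gave 4891, 2184, 4237, 389 and 3391 periportal cells, it was -0.24 (8 h), 0.16 (16 h), -0.0070 (24 h) and 0.069 (30 h).

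Within the periportal cells of a library, the spread between cells was read after 300 panel UMIs had been drawn at random from each. Pck1 had a median of 2 UMIs per cell at 0 h, with the 10th and 90th percentiles at 0 and 7. The median was 6 (8 h, 2 to 12.1), 11 (16 h, 4 to 18), 8 (24 h, 2 to 14) and 15 (30 h, 6 to 23). The whole range of cells had moved, so that the 10th percentile at 30 h was near the 90th at 0 h. Its variance was 3.04, 2.97, 2.94, 2.45 and 3.28 times that of random sampling. For Scd1 the variance was 4.81, 5.40, 4.12, 2.90 and 4.47 times that of random sampling, with a median of 20 UMIs at 0 h (10 to 34). For Hsd17b13 it was between 1.10 and 1.21 times, and for Sds between 1.14 and 1.29. For the same relative spread between cells, this ratio is larger in a gene with more UMIs. It therefore does not rank these genes by spread. Fasn went from a median of 7 UMIs per cell at 0 h to 1 at 8 h and 0 at 16, 24 and 30 h. The spread includes differences in Alb share between cells, whose own variance was between 5.05 and 7.15 times that of sampling, and the part this plays was not tested.

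**Figure D4:**
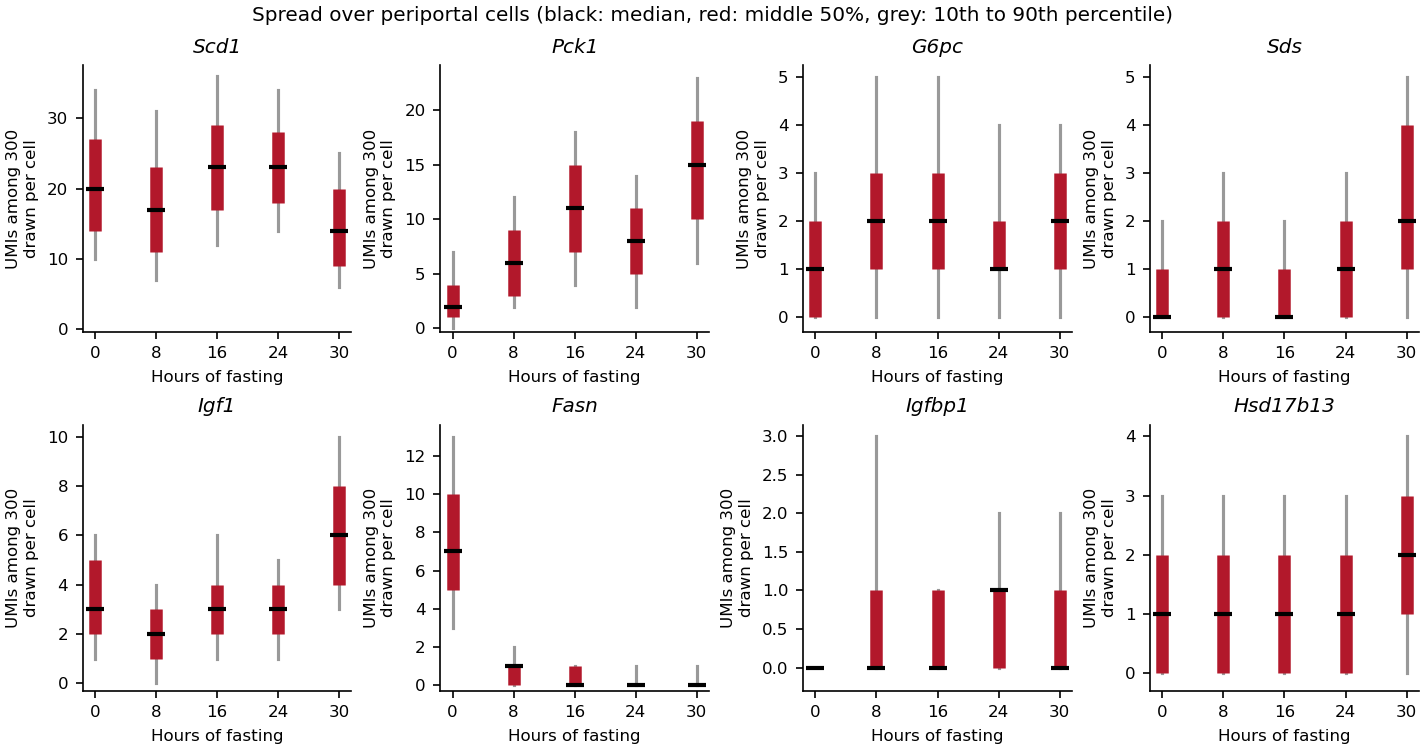
UMIs per periportal cell among 300 panel UMIs drawn at random from each cell, for 8 genes at each fasting hour; points are medians, thick bars the middle 50% of cells and thin bars the 10th to 90th percentile. Pck1 shifts as a whole from a median of 2 at 0 h to 15 at 30 h, while the Fasn median goes from 7 to 0.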

How the data were processed

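The values the authors deposited were raw UMI counts of 64 panel genes in 47473 barcodes, with a table naming the library of each barcode. Cell Ranger 6.0.1 and the build mm10 are named, per the submitters' processing notes. The libraries were 10x Genomics 3' version 3 libraries, 1 per time, enriched by hybrid capture for the panel, per the labels' protocols. No source used here says how barcodes were called as cells.

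Levels were UMIs summed over the cells of a library, divided by the summed panel UMIs without Alb, which took between 72.9% and 78.8% of periportal UMIs. Level intervals were exact Poisson, ratio intervals exact conditional binomial, and intervals of differences normal from the 4 counts, all at 95%. Genes needed 100 UMIs in the sums compared; Alb, Cyp2e1 and Cyp2f2 were left out of counts, and a gene was counted past 2-fold. No doublet caller was run; the 5% of cells with most UMIs were left out as an alternative. Of the 64 genes, 52 had at least 100 UMIs in periportal cells, and all 64 identifiers matched GENCODE M21. Genes named were those on the lists used plus the 3 largest rises and falls at each time, and 2 of them are not reported here. No listed gene of cholesterol synthesis and uptake was on the panel. The cells, lists and rule were chosen with earlier results of these data known. The steps were tested on simulated counts with planted changes and distinct kinds of cell. These counts held no variation between libraries and no graded score, so they check the calculation only. Python 3.11.15, NumPy 2.4.6, SciPy 1.17.1 and Matplotlib 3.10.9 were used.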

Additional observations from a re-analysis of the deposited data

Results flagged for a closer look

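The named genes other than Alb, Cyp2e1 and Cyp2f2 gave 184 gene and time combinations. In 12 of them the periportal and pericentral-end changes from 0 h had opposite signs, with both counting intervals clear of 0. Each end has 1 library per time, so the difference was not tested. Hsd17b13 was listed at every time, with a periportal change minus pericentral change of 0.66 (8 h), 0.74 (16 h), 0.95 (24 h) and 1.01 (30 h). Its periportal change at 24 h was small, 0.057 (0.013 to 0.10). These differences depended on how the cells were chosen. With 1 fixed score threshold of -2 and 2 they were -0.24, 0.16, -0.0070 and 0.069. Nr0b2 at 8 h had 1.59 (1.25 in periportal cells, -0.34 at the pericentral end). Glul had -0.57 at 8 h (-0.29 and 0.28) and -1.29 at 24 h (-0.57 and 0.72). Cyp8b1 at 16 h had -0.97 (-0.59 and 0.37). The remaining differences were smaller: Igf1 at 24 h 0.27, Baat at 30 h 0.34, Fads2 at 30 h 0.29 and Nr1h3 at 30 h 0.38. With Cyp2e1 and Cyp2f2 left out of the denominator, 7 of the 12 remained on opposite sides, and Igf1 at 24 h and the Baat, Fads2, Hsd17b13 and Nr1h3 values at 30 h did not.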

How the results depend on the processing

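Of 73 named gene and time values past 2-fold against 0 h in periportal cells, between 63 (UMIs per cell) and 73 remained past 2-fold in the same direction over 16 alternative settings. Reversed, by UMIs per cell at 8 h, were Cyp46a1 (-0.13), G6pc (-0.25) and Nr0b2 (-0.046). By UMIs per cell there were 2 genes higher and 32 lower at 8 h and 22 lower at 16 h, and against the pericentral end in all 5 libraries 1 higher and 6 lower. With all panel UMIs as denominator, 3 genes were higher at 24 h, and the counts against the pericentral end were 0 higher and 7 lower. The median log2 change of all genes in periportal cells was -0.36, -0.22 and -0.29 at 8, 16 and 24 h with all panel UMIs, -0.16 at 8 h with median-of-ratios scaling and 0.25 at 24 h without Alb and Scd1. With the lowest and highest 30% of the score 1 was higher. Counts of genes whose change differed between the ends (2, 1, 1 and 2 at 8, 16, 24 and 30 h) were small and moved at 1 time or more under all 16 settings. At 8 h the moved counts were 1, or 5 by UMIs per cell. At 16 h they were 2, or 3 (all panel UMIs, the denominator without Cyp2e1 and Cyp2f2, UMIs per cell and a gene minimum of 20 UMIs). At 24 h they were 2 or 3, and at 30 h 1, or 0 without Cyp2e1 and Cyp2f2. The fixed score threshold and the denominator without Alb and Scd1 were added after seeing the data. The cause of these shifts was not tested. No paired analysis was possible because each time point has 1 library and the labels carry no replicate numbers.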
